A study of Homo sapiens with 6 samples.

Results

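DEK was precipitated from U937 cells in 2 ChIP-seq samples, and the stretches of the genome where its binding sites crowded together are described here. A shared DEK interval was the overlap, of at least 1 bp, between a peak of DEK replicate 1 and a peak of DEK replicate 2. Each shared interval was placed by its middle in fixed bins of 100 kb, and a cluster was a bin that held 3 or more shared intervals, outside 26 to 28 Mb on chromosome 6 and 79 to 96 Mb on chromosome 13. This gave 652 intervals in 185 clusters, out of 4453 shared intervals in all. The 22 numbered chromosomes, X and Y carried 4435 of the 4453, and the backgrounds below are over these. The 2 stretches set aside held 44 further intervals in bins of that kind, which are counted below among the other shared intervals, those outside clusters. The members were chosen by the measured positions of the DEK peaks, so all DEK values below are descriptions without a test.

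U937 is an established human myelomonocytic leukemia line, grown here without any treatment, and every sample came from it. The series holds 2 samples each of non-precipitated chromatin (input), of chromatin precipitated with an antibody to DEK and of chromatin precipitated with an antibody to the histone mark H3K4me3. All coordinates are those of hg19, the same sequence as GRCh37 on the chromosomes used. The DEK lists held 15017 peaks in replicate 1 and 152779 in replicate 2, and the H3K4me3 lists 47523 and 29335. MACS gave every DEK replicate 1 peak a false discovery rate of 100%. The lists give the tags (reads assigned to a peak) but not the depth of each library, and nothing in the labels says that the replicates were separate cultures.

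DEK is an abundant nuclear protein that binds DNA and chromatin, changes DNA topology and acts as a histone chaperone. Its gene is part of a recurrent fusion in acute myeloid leukemia, and the protein is abundant in proliferating cells. H3K4me3, trimethylation of lysine 4 on histone H3, marks the nucleosomes around active and poised promoters.

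The sequence at the interval with the largest lower DEK score is shown for 5 of the 6 clusters with the most intervals. Of the 6 clusters that held 6 each, the 4 with the largest sums of the lower DEK score counted. The window of the remaining cluster, in RPS9, overlaps an untranslated region and is not shown. The windows are centred on the overlap of the peaks and need not hold the strongest binding. Each line gives 120 bases of the GRCh37 forward strand around the middle of the interval whose lower DEK score was the largest in its cluster. Capitals mark CTTCCT, the reverse complement of the PU.1 core AGGAAG, and ACCACA, the reverse complement of the RUNX core TGTGGT. No capitals mean that none of the 4 motifs searched is in those 120 bases.
RASA3 intron, chr13:114830868-114830987: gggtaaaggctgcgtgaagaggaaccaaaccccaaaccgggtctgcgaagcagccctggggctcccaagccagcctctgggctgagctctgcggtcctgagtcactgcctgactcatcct
CDH23 intron, chr10:73507022-73507141: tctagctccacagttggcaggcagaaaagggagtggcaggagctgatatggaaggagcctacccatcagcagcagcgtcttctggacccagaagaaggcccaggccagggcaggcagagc
ZFP36L2 coding exon, chr2:43452222-43452341: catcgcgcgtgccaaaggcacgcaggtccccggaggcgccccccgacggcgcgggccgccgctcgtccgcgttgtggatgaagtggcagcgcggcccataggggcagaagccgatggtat
MIDEAS intron, chr14:74210577-74210696: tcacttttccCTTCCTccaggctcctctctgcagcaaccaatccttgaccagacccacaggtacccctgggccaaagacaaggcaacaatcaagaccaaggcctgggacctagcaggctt
SEPTIN9 intron, chr17:75436914-75437033: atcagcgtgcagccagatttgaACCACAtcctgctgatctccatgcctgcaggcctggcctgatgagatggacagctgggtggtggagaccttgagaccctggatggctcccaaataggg
All 5 stretches were rich in G and C, between 55.8% (MIDEAS) and 72.5% (ZFP36L2). The typical 24-base word (24-mer) of each of the 5 windows occurred once in the genome (median of 1 copy). None of the 5 lay in an untranslated region.

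Over all 652 members, a window of 150 bp on each side of the middle was searched on both strands for 4 short motifs, each counted on its own, so that matches of different motifs could overlap. AGGAAG, a core recognised by the myeloid factor PU.1, was in 33.4% of member windows (95% Wilson interval 29.9% to 37.1%) and in 28.0% of the windows of all shared intervals. The E-box CACGTG, bound by USF1, was in 7.21% (5.46% to 9.45%) against 5.66% of all. GGGCGG, the SP1 core, was in 24.1% against 23.6%, and TGTGGT in 22.6% against 22.1%. A match describes letters and not a bound site. The median GC content of the windows was 54.8% in the members and 53.8% over all shared intervals.

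Most clusters were small. Of the 185, 125 held 3 intervals, 35 held 4, 17 held 5, 6 held 6, 1 held 7 and 1 held 9. The members came from 485 separate peaks of replicate 1 and 643 of replicate 2. Of the replicate 1 peaks, 146 each met several peaks of replicate 2 and so gave 2 or more members, 313 in all. Among the shared intervals outside clusters this was so for 171 of 3610 replicate 1 peaks. Clusters with 3 or more separate replicate 1 peaks numbered 96, those with 3 or more separate replicate 2 peaks 180, and 93 met this in both lists. At the other end, 9 clusters came from a single replicate 1 peak each, between 2772 and 7851 bp wide. Had separate replicate 1 peaks been counted in place of intervals, 96 of the 185 bins would have met the threshold.

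The distances between neighbouring middles fell into a short and a long range. There were 467 such distances with a median of 5841 bp. Where both neighbours lay in 1 replicate 1 peak (167 distances) the median was 1161 bp, with a range of 395 to 3887 bp. Where they lay in separate replicate 1 peaks (300 distances) it was 15985 bp, with a range of 710 to 94564 bp. From first to last middle, the clusters spanned a median of 35646 bp, and 28 of them spanned less than 10 kb. In 6 places 2 neighbouring bins were both clusters.

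**Figure D1:**
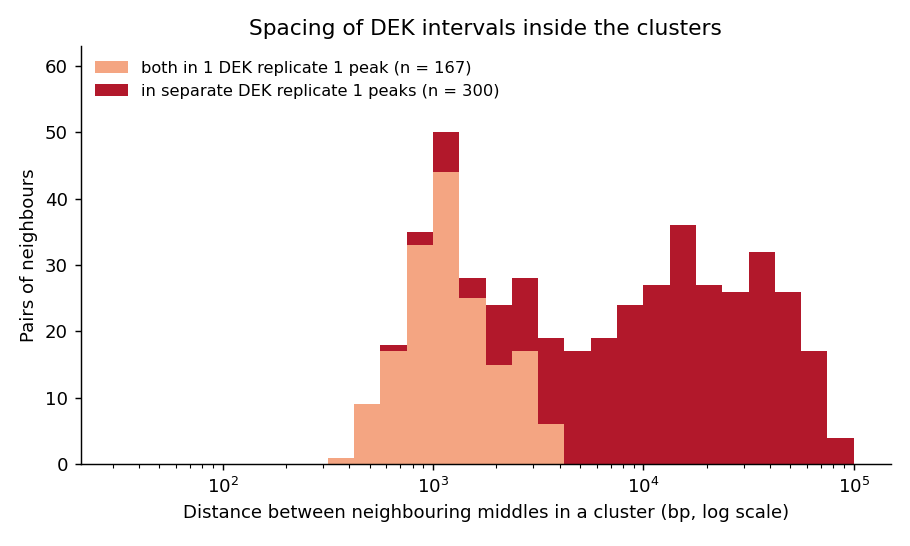
Histogram of the distance in bp (log scale) between neighbouring interval middles inside a cluster, stacked by whether both neighbours lie in 1 DEK replicate 1 peak (n = 167) or in separate peaks (n = 300). The first kind lies between 395 and 3887 bp, and the second reaches up to 94564 bp.

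The peaks behind the members held more tags and were wider than those behind other shared intervals. In replicate 1 the members' peaks had a median of 118.5 tags (range 22 to 914), against 59 for the 3783 other shared intervals on these chromosomes. In replicate 2 the median was 44 tags (13 to 400) against 28. The medians of width were 1952 against 1182 bp in replicate 1 and 1170 against 813 bp in replicate 2. Per kb of peak the medians lay closer together, at 56.8 tags against 47.4 in replicate 1 and 36.8 against 33.3 in replicate 2. Fold enrichment over the local background was lower in the members than over all shared intervals, with a median of 4.96 against 5.33 in replicate 1 and 3.76 against 4.14 in replicate 2. A wide replicate 1 peak that met several replicate 2 peaks gave several members, so the rule itself favoured width and total tags. Counted once per replicate 1 peak, the medians were 108 tags and 1756 bp in the members. Over all shared intervals they were 61 tags and 1214 bp. The members' peaks were not higher over background. A replicate 1 peak of 3 kb or more lay behind 27.6% of members and behind 9.47% of all shared intervals.

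Across the 652 members, tags in replicate 1 and in replicate 2 had a Spearman correlation of 0.50, against 0.64 across all shared intervals. The scores, which MACS derives from the p-value of each peak, had a Spearman correlation of 0.07 in both sets. These points share libraries and in part share peaks, so the values are descriptions. Both scores reached 100 in 127 members. The overlaps themselves were between 1 and 5313 bp long with a median of 862 bp, 29 members were shorter than 100 bp and 268 were at least 1000 bp long.

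**Figure D2:**
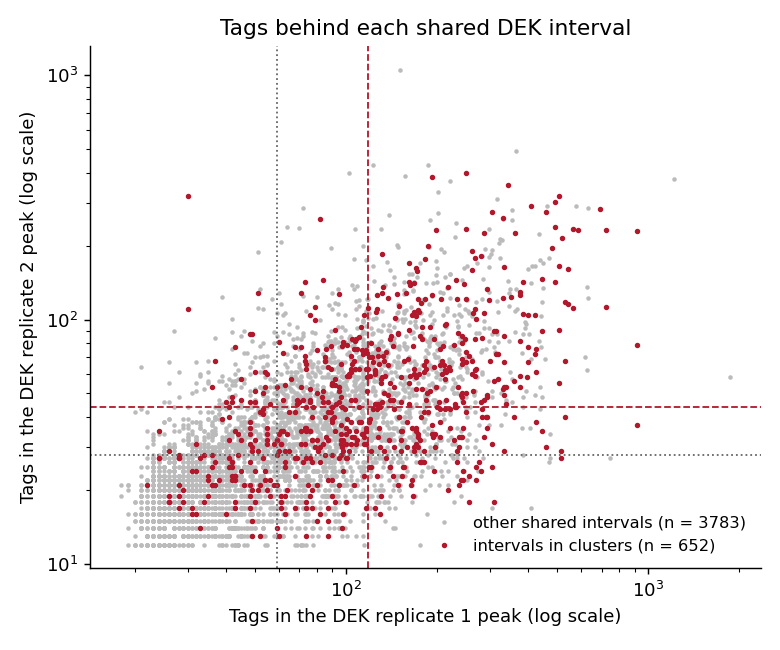
Tags in the DEK replicate 1 peak (x axis) and in the DEK replicate 2 peak (y axis) behind each shared interval, both on log scales, with red points for the 652 intervals in clusters and grey points for the 3783 others. Dashed red lines mark the medians of the cluster intervals (118.5 and 44 tags) and dotted grey lines those of the others (59 and 28), and the red points lie to the right of most grey ones.

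The rule did not use H3K4me3, so the deposited H3K4me3 peaks give a second readout of the same stretches. An H3K4me3 replicate 1 peak overlapped 410 members, or 62.9% (59.1% to 66.5%), where the share over all shared intervals was 49.9%. An H3K4me3 replicate 2 peak overlapped 247 members, or 37.9% (34.2% to 41.7%), beside 34.1% of all. Peaks of both lists overlapped 245 members, or 37.6% (33.9% to 41.4%), beside 33.7% of all. Almost every member on a replicate 2 peak was thus on a replicate 1 peak as well, and the members stood clearly above the background in the longer H3K4me3 list alone. The H3K4me3 lists carry no heights, and regions are not replicates of a condition, so no test was run. The intervals cover counting error only and treat members of 1 peak as if they were separate.

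DEK peaks of 1 kb or more were on H3K4me3 more often than narrower ones, in clusters and outside them, and the comparison changed when it was made within classes of DEK replicate 1 peak width, a split chosen after seeing the data. For peaks of 2 kb to under 3 kb, 80.0% of 130 members (72.3% to 86.0%) were on an H3K4me3 replicate 1 peak, against 79.7% of 443 other shared intervals. From 1 kb to under 2 kb the shares were 57.8% of 277 members (51.9% to 63.4%) and 60.4% of 1672 others. For peaks of 3 kb or more they were 73.3% of 180 members (66.4% to 79.3%) and 75.8% of 240 others, and under 1 kb 21.5% of 65 (13.3% to 33.0%) and 18.0% of 1428. At equal width, then, members and other intervals had overlapping Wilson intervals in every class for the replicate 1 list.

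For H3K4me3 in both lists the members lay below the others at equal width. The shares were 47.7% (39.3% to 56.2%) against 60.5% (55.9% to 64.9%) from 2 kb to under 3 kb, and 48.9% (41.7% to 56.1%) against 60.8% (54.5% to 66.8%) from 3 kb upward. From 1 kb to under 2 kb they were 32.5% (27.3% to 38.2%) against 40.7% (38.4% to 43.1%), and under 1 kb 7.69% (3.33% to 16.8%) against 10.8% (9.28% to 12.5%). The Wilson intervals of members and others overlapped in all of these classes except from 1 kb to under 2 kb. In both lists together, then, the members' share was the lower one in each of the 4 width classes. The others here include the 44 intervals of the stretches set aside, and the classes were not recounted without them. Across all widths, counting those 44 as members gave 39.8% of 696 on H3K4me3 in both lists, in place of 37.6%. When 1 interval per replicate 1 peak was counted, 60.6% of 485 (56.2% to 64.9%) were on the replicate 1 list, against 48.4% over all 4093 peaks with a shared interval.

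**Figure D3:**
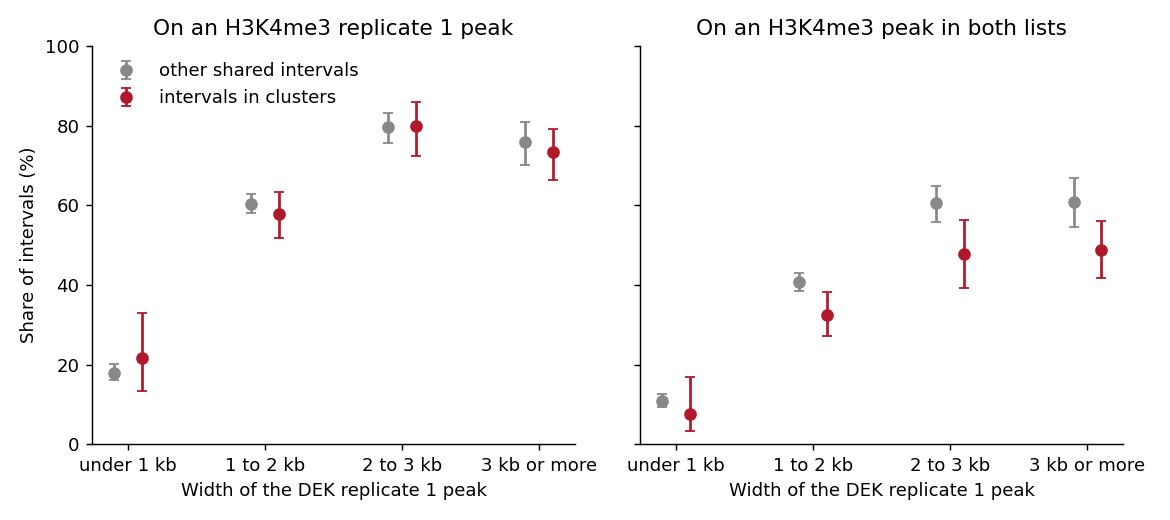
Share (%) of intervals on an H3K4me3 replicate 1 peak (left) and on an H3K4me3 peak in both lists (right), by width of the DEK replicate 1 peak, for intervals in clusters (red) and other shared intervals (grey). Points are shares and bars 95% Wilson intervals. On the left both kinds rise together to 80.0% and 79.7% at 2 to 3 kb, and on the right the clusters lie lower, at 47.7% against 60.5% there.

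Members were at transcription start sites (TSSs) about as often as shared intervals in general. A TSS of any annotated transcript was 1 kb or less from the middle in 174 members, or 26.7% (23.4% to 30.2%), where the share over all shared intervals was 26.2%. For coding genes alone the shares were 17.9% and 19.4%. The median distance to the nearest TSS was 3726 bp in the members and 5058 bp over all shared intervals. By the annotation, 254 of the remaining members had their middle in an intron of a coding gene, 34 in an exon of a coding gene, 47 in the body of a noncoding gene and 143 between genes. The share inside coding genes was 61.7% in the members and 59.95% over all. At least 1 member was within 1 kb of a TSS in 100 clusters, all members were in 8 clusters, and none was in 85.

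H3K4me3 and TSSs together split the members further. Of the 174 members within 1 kb of a TSS, 77.0% (70.2% to 82.6%) were on an H3K4me3 replicate 1 peak and 60.9% (53.5% to 67.9%) on both lists, against 79.4% and 70.7% of all shared intervals at TSSs. Of the members with no TSS that near, 57.7% (53.3% to 62.1%) were on the replicate 1 list and 29.1% (25.2% to 33.3%) on both, against 39.4% and 20.6%. The members exceeded the background where no TSS was near and lay at or below it at TSSs. These shares were not split by peak width.

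The share on H3K4me3 did not go on rising with the number of intervals in the bin, counted outside the stretches set aside. In the replicate 1 list it was 45.2% for the 2606 intervals alone in their bin, 55.1% for the 1050 in bins of 2 (just outside the threshold), 63.5% for the 375 in bins of 3 (just inside it), 62.1% for the 140 in bins of 4 and 62.0% for the 137 in fuller bins. In the replicate 2 list the shares were 31.7%, 37.9%, 39.2%, 37.9% and 34.3%. Median tags of the DEK replicate 1 peak over the same classes were 51, 79, 113, 129.5 and 129, so that they rose along with the replicate 1 shares up to bins of 3. The share near a TSS stayed between 24.1% and 28.0% in all classes.

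**Figure D4:**
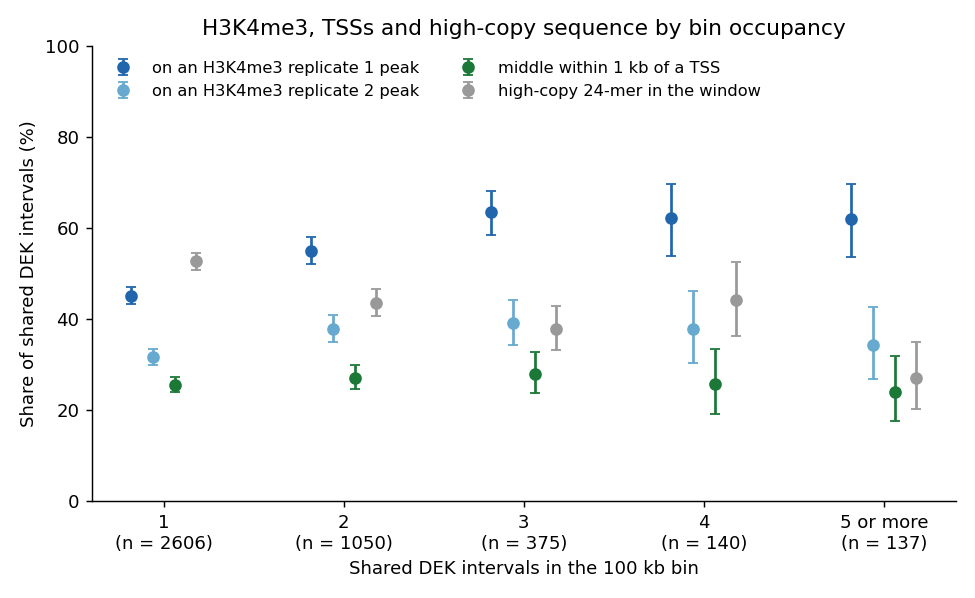
Share (%) of shared DEK intervals on an H3K4me3 peak of each list, within 1 kb of a TSS, and with a high-copy 24-mer in the window, by the number of shared intervals in their 100 kb bin. Points are shares and bars 95% Wilson intervals, and the H3K4me3 replicate 1 share goes from 45.2% for lone intervals to 63.5% in bins of 3 and 62.0% in bins of 5 or more.

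Repeated sequence was less common in clusters, although many members still held some. A window was called high-copy where a 24-mer in it occurred at least 1000 times in the genome, as in abundant interspersed repeats. This held for 241 members, or 36.96% (33.3% to 40.7%), where the share over all shared intervals was 48.0%. An unbroken run of 20 A or T was in 2.61% of member windows and in 5.14% of all. Members without high-copy sequence were on H3K4me3 in both lists in 45.3% of cases (40.5% to 50.1%), beside 50.2% of all such intervals, and members with it in 24.5% (19.5% to 30.3%), beside 15.8%. The typical (median) 24-mer of the window occurred 2 or more times in 212 members, or 32.5%, against 40.9% of all. At those 212 some tags may belong to another copy. The reads were longer than 24 bases, and whether reads of that length could be placed uniquely was not measured, here or at the copy numbers given below.

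The cluster bins held more coding gene starts and H3K4me3 peaks than other bins, and more DEK peaks, which the rule itself required. A cluster bin held a mean of 3.61 DEK replicate 1 peaks and 17.4 replicate 2 peaks, shared or not, against 1.88 and 10.3 in the 3198 bins with 1 or 2 shared intervals and 0.298 and 4.21 in the 27578 bins with none. Coding genes started there at a mean of 1.48 per bin, against 1.19 and 0.581. H3K4me3 replicate 1 peaks numbered 5.09 per cluster bin, against 3.23 and 1.28. A coding gene started in 69.2% of cluster bins and in 35.1% of all bins.

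Clusters were spread over 23 chromosomes but not evenly. Chromosome 19, the most gene-dense human chromosome, had 59 members in 16 clusters, which was 31.6% of its 187 shared intervals (25.3% to 38.5%) and 9.98 members per 10 Mb. Chromosomes 18 and 17 followed with 25.4% and 23.4% of their shared intervals in clusters. The lowest shares were 4.17% on chromosome 6, which holds 1 of the 2 stretches set aside, and 4.72% on chromosome 9. Chromosome Y had 2 shared intervals and no cluster. Within 5 Mb of a chromosome end lay 155 members, or 23.8%, against 12.7% of all shared intervals.

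The fullest cluster lay in RASA3, a GTPase-activating protein that switches off Ras and Rap signalling. It held 9 intervals from 7 replicate 1 peaks between chr13:114814494 and 114897075, all in introns of the gene. Tags ran from 36 over a median of 89 to 115 in replicate 1 and from 13 over 42 to 104 in replicate 2. The 3 intervals nearest the start of the gene, 1583 to 3726 bp from it, were on H3K4me3 in both lists. Further inside, 1 more interval at 20332 bp from the nearest annotated coding start was on both lists, 2 were on replicate 1 alone and 3 on neither. All 9 windows had a median of 1 genomic copy.

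CDH23, a cadherin of sensory hair cells whose gene contains that of VSIR (the immune checkpoint protein VISTA), held 7 intervals from 5 replicate 1 peaks. Tags ran from 90 over 249 to 563 in replicate 1 and from 31 over 54 to 235 in replicate 2. The 2 intervals at chr10:73505863-73511060 shared the replicate 1 peak of 563 tags. All 7 were on an H3K4me3 replicate 1 peak and 2 were on replicate 2, although none was within 1 kb of a TSS. The nearest coding start to 4 of them was that of VSIR, at 1888 to 7696 bp.

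ZFP36L2, an RNA-binding protein that promotes decay of mRNAs with AU-rich elements, and the noncoding genes LINC02580 and LINC01126 beside it, had 6 intervals in 3 replicate 1 peaks at chr2:43440752-43455506. Those peaks held 76, 425 and 375 tags. The 5 intervals in the larger peaks were on H3K4me3 in both lists, while the first, 12471 bp from the ZFP36L2 start, was on neither and lay 2949 bp from the nearest H3K4me3 peak, with a median of 76.5 copies per 24-mer. In replicate 2 the interval in the ZFP36L2 coding exon had 126 tags and the one at its TSS 82, and the other 4 had 38 to 76.

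MIDEAS, a subunit of a histone deacetylase complex, had 6 intervals in 4 replicate 1 peaks, with 73, 116, 174 and 236 tags. Of the 6 intervals, 5 were on H3K4me3 in replicate 1 and 4 in replicate 2. The 2 within 1 kb of an annotated MIDEAS TSS lay upstream of it but inside the gene by the annotation. These 2 were 669 and 30 bp long, and the shorter was on the replicate 1 list alone. The 2 intervals between genes, 20072 and 21586 bp from the nearest MIDEAS start, were on H3K4me3 in both lists, but the median 24-mer of their windows had 271 and 59.5 genomic copies, so their tags may come from other copies.

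RPS9, which encodes a protein of the small ribosomal subunit, held 6 intervals by the annotation used, in which its longest transcripts run past the start sites of LILRB3 and LILRA6. None of the 6 was at the start of RPS9. They lay 4819 to 7999 bp from the nearest coding start, and 3 were within 1 kb of the TSS of a noncoding gene. The replicate 1 peaks held 173, 233 and 93 tags. All 6 were on H3K4me3 replicate 1 peaks and none on replicate 2. LILRB3 and LILRA6 encode leukocyte immunoglobulin-like receptors. The first window had a median of 2 copies per 24-mer, and the fourth a median of 22.5 with a 24-mer of 269876 copies, which is a high-copy window by the mark above.

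SEPTIN9, a GTP-binding protein of the septin cytoskeleton, held 6 intervals in 4 replicate 1 peaks with 116, 221, 90 and 53 tags. The interval with the highest lower score, chr17:75436353-75437594, was on an H3K4me3 replicate 1 peak, and the other 5 were on no H3K4me3 peak of either list, although 4 of them lay within 1 kb of an annotated SEPTIN9 TSS. In replicate 2 the tags were 63, 75, 62, 19, 38 and 43. The first of these intervals was only 5 bp long, where the edges of separate peaks just met, and its window had a median of 9.5 copies per 24-mer. SEPTIN9 was thus the gene with the most members near its annotated starts (4), and CDCA7L, CUEDC1, MEIS1, RSAD1 and SLC51A followed with 3 each. These counts depend on how peaks were split and on how many starts are annotated. The 4 at SEPTIN9 came from the replicate 1 peaks of 116 and 90 tags alone, and the 3 at SLC51A from 1 peak.

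The neighbours ARHGAP11A and SCG5, a neuroendocrine secretory chaperone, had 6 intervals in 4 replicate 1 peaks of 106, 108, 42 and 32 tags. The interval at the ARHGAP11A TSS was on H3K4me3 in both lists. The 2 at the SCG5 TSS and the 1 at SCG5-AS1 were on neither, with the nearest H3K4me3 peak 21822 to 48670 bp away. The 2 intervals in ARHGAP11A-DT, which had 68 and 21 tags in replicate 2, had a median of 16 copies per 24-mer, and the interval at the ARHGAP11A TSS a median of 2.

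**Figure D5:**
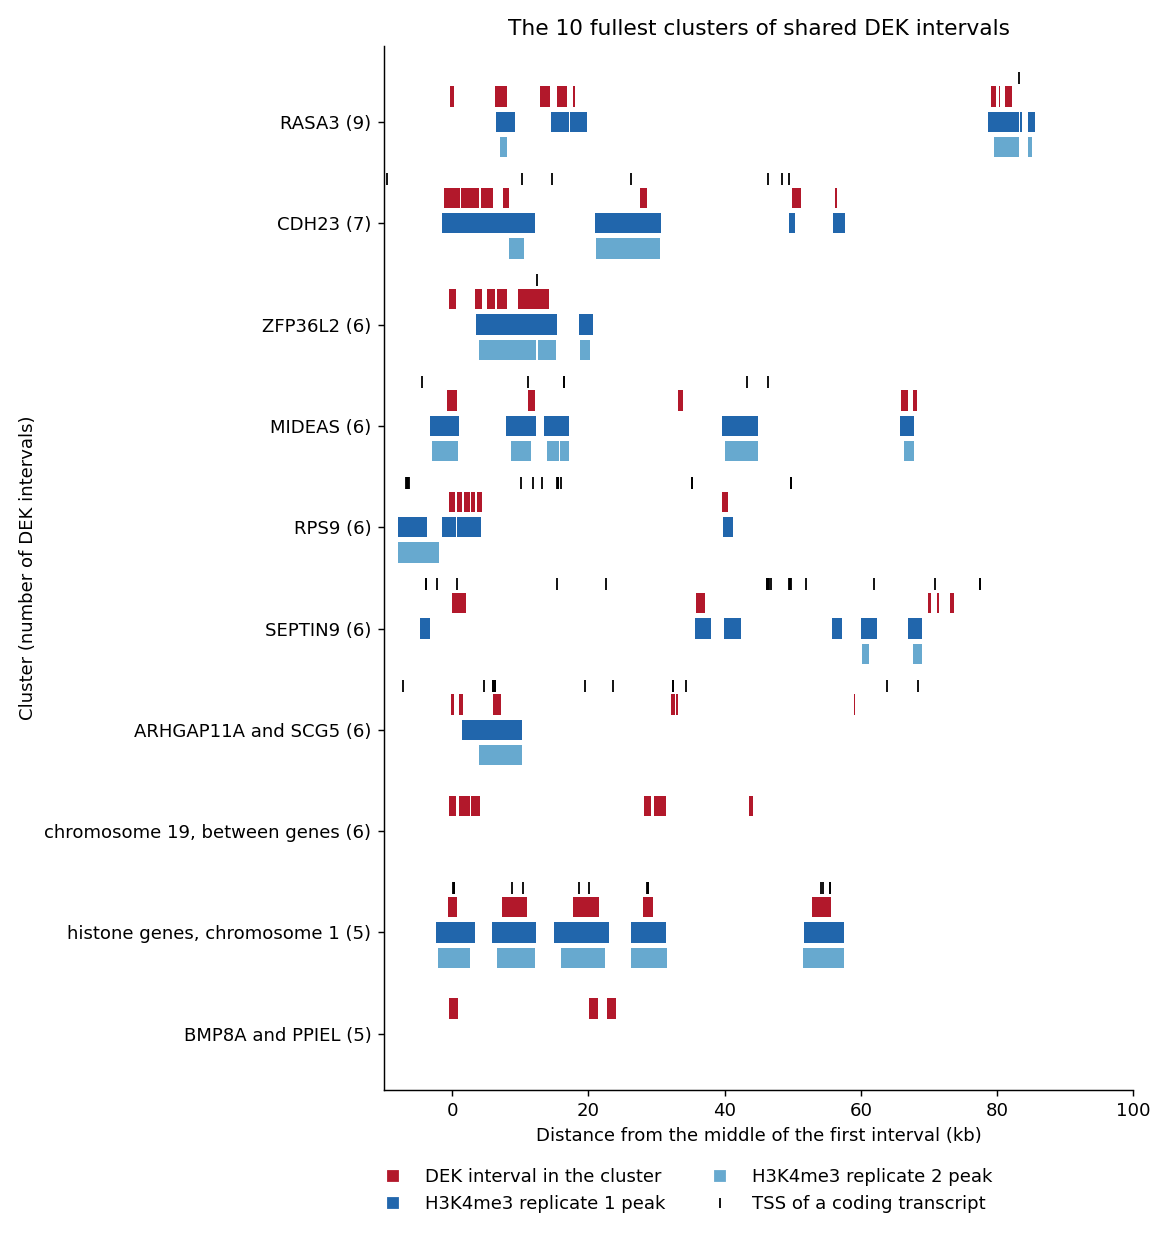
Maps of the 10 clusters with the most shared DEK intervals (number in brackets), as distance in kb from the middle of the first interval. Red blocks are DEK intervals (close neighbours merge at this scale), dark and light blue blocks are H3K4me3 peaks of replicates 1 and 2, and ticks are starts of coding transcripts. The histone gene cluster has H3K4me3 under all 5 intervals, while the cluster between genes on chromosome 19 and that of BMP8A and PPIEL have none.

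All members were on H3K4me3 in both lists in 17 clusters (59 members), no member was on either list in 24 clusters (83 members), and 144 clusters (510 members) lay between. At least 1 member was on both lists in 124 clusters. Among the 59 members of the first kind 33, or 55.9% (43.3% to 67.9%), were within 1 kb of a TSS, against 10 of the 83 of the second kind (6.68% to 20.8%). High-copy windows made up 18.6% (10.7% to 30.4%) and 62.7% (51.9% to 72.3%). The median GC content was 56.8% and 51.2%, and the median tags of the DEK peaks 117 and 87 in replicate 1 and 44 and 38 in replicate 2. The kinds therefore differed in TSSs, repeats and GC content as well as in H3K4me3, and the part of each was not tested. They differed in position too. Many of the clusters off H3K4me3 lay in a stretch of distal chromosome 3, chr3:181614780-197485240, where some other clusters had members on it.

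The histone genes on chromosome 1 gave the cluster on H3K4me3 with the highest scores. Its 5 intervals, each at a histone TSS and each from its own replicate 1 peak, lay at H4C14, H3C14, H3C15, H4C15 and the divergent pair H2AC20 and H2BC21, in map order. These genes encode core histones. Named are those with a TSS within 1 kb of a middle. The intervals at H3C14, H3C15 and the pair also covered further coding starts, more than 1 kb from the middle. Tags in that order were 135, 331, 408, 129 and 363 in replicate 1 and 59, 260, 292, 66 and 226 in replicate 2. By tags of the whole peak, both replicates thus had the same 3 high intervals (H3C14, H3C15 and the pair) and the same 2 low ones (H4C14 and H4C15). The high ones came from wider replicate 1 peaks, of 4341, 5145 and 4506 bp against 2146 and 2104 bp. Fold enrichment followed this split in replicate 2, at 9.44, 8.2 and 10.86 against 4.35 and 4.47. It did not in replicate 1, at 3.66, 4.41 and 7.42 against 6.28 and 3.71. The interval at H2AC20 and H2BC21, chr1:149856912-149859720, had the largest lower score of all 652 members (513.7 in replicate 1 and 1053 in replicate 2). At the other 4 intervals the median 24-mer occurred 2 times in the genome. Some tags at these 4 may therefore belong to another copy.

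MEIS1, a homeobox transcription factor of blood progenitors, had 5 intervals that were all on H3K4me3 in both lists. At its starts were 3, with 105, 134 and 134 tags in replicate 1 (the last 2 from 1 peak) and 66, 29 and 68 in replicate 2. The other 2 lay 14963 and 56056 bp from the gene with 43 and 31 tags, and their 24-mers had medians of 2 and 102 copies. HDAC4, a histone deacetylase, had 5 intronic intervals on H3K4me3 in both lists, 3356 to 30758 bp from the nearest coding start, with 87 to 97 tags in replicate 1 and 14 to 44 in replicate 2. The 4 intervals around ANXA2R, a receptor of annexin, and ZNF131, a zinc-finger gene, were each within 1 kb of a TSS, with 71 to 109 tags in replicate 1 and 29 to 76 in replicate 2. In the cluster of NCF1B, a pseudogene copy of the neutrophil NADPH oxidase gene NCF1, 1 interval was at the NCF1B TSS and the other 2 lay between genes. The median 24-mer of these 3 windows had 3 to 14.5 copies.

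At the other extreme, the cluster on chromosome 19 at chr19:8851428-8896055 had 6 intervals between genes, with the nearest H3K4me3 peak 20576 bp away. Its replicate 1 peaks held 212, 242 and 44 tags over 4660, 5582 and 1105 bp. Their fold enrichments of 3.3, 4.26 and 3.31 lay below the member median of 4.96. In replicate 2 the tags ran from 33 to 80. The nearest coding starts were those of OR2Z1, an olfactory receptor gene, and ZNF558, at 19934 to 50429 bp. Every window had a median of 6 to 7.5 copies per 24-mer, so the reads may come from related stretches elsewhere.

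A single replicate 1 peak of 6996 bp and 333 tags, chr3:194670588-194677583, gave a whole cluster of 5 intervals, with 86, 29, 53, 49 and 67 tags in replicate 2. It lay between genes, 131277 bp or more from the nearest coding start (XXYLT1, a xylosyltransferase gene) and 6384 to 11740 bp from an H3K4me3 peak. The window of the fourth interval had a median of 648.5 copies per 24-mer, and the other 4 a median of 1. SLC51A, a subunit of a bile acid and steroid transporter, overlaps PCYT1A, an enzyme of phosphatidylcholine synthesis, and gave another cluster from 1 peak. Its 3 intervals were at SLC51A starts, with 279 tags in replicate 1 and 183, 24 and 46 in replicate 2, and the nearest H3K4me3 peak was 7115 bp away. The median 24-mer at the first, which held 183 tags, had 223.5 copies.

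BMP8A, a bone morphogenetic protein, and the noncoding gene PPIEL had 5 intervals in 3 replicate 1 peaks of 92, 62 and 55 tags, at 25013 bp or more from H3K4me3. Replicate 2 gave 54, 91, 35, 73 and 32 tags, and the second window had a median of 2 copies per 24-mer. CD276, an immune checkpoint ligand, had 2 intronic intervals from 1 replicate 1 peak of 152 tags, with 35 and 46 tags in replicate 2. They lay 3143 and 2426 bp upstream of the nearest annotated CD276 start, which is inside the gene by the annotation. The third interval of that bin lay between genes, 19420 bp from the NPTN start, with 35 and 23 tags and a median of 10 copies per 24-mer.

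The 10 members with the largest lower score came from 10 different clusters, and all 10 were on an H3K4me3 replicate 1 peak (8 also on replicate 2). These values follow from the choice by score and are given as a description. After the histone pair came the interval at SNORD3A, a gene of the U3 small nucleolar RNA that acts in ribosomal RNA processing, with 531 and 118 tags. Its median 24-mer had 5 copies, so some of these tags may belong to other places. Then, among the next 4, came 3 stretches on chromosome 7 (starting at 74178486, 72625113 and 74594221), between genes, with 587, 724 and 479 tags in replicate 1 and 232, 232 and 196 in replicate 2. In the same order, their middles lay at -7896, -7443 and -7992 bp from the nearest annotated TSS, where a negative value is upstream. For the stretch starting at 74178486 that TSS was of NCF1. The stretch starting at 72625113 is in the cluster of NCF1B, the copy of NCF1 named above. The median 24-mer of each stretch had 3 copies. Some of these tags may therefore belong to other places, which may include the other stretches of this group. Whether the 3 stretches are copies of each other was not tested, so they need not be separate sites.

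An interval at chr16:85967869-85968844, within 1 kb of a TSS of the noncoding gene ENSG00000285163, had 305 and 276 tags. The nearest annotated coding start, 20707 bp from this interval, belonged to a transcript of IRF8, a transcription factor of monocyte development. It need not be the first start of that gene. The other 2 intervals of the same cluster lay nearer to IRF8, both from 1 replicate 1 peak of 459 tags. All 3 were on an H3K4me3 replicate 1 peak with a median of 1 copy per 24-mer. The rest of the 10 were an intron of KCNG2, a potassium channel subunit (147 and 127 tags), the CDH23 interval above, the TSS of HHEX, a homeobox factor of early blood cells (350 and 124), and the TSS of OAZ1, an inhibitor of polyamine synthesis (377 and 130).

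By gene, a member lay within 1 kb of the TSS of 164 annotated genes counted by identifier (161 counted by symbol, since some identifiers share one), and some shared interval did so for 1382 by identifier. Of these, 89 and 884 were coding. This was 0.255% of all annotated genes and 0.441% of coding genes. Of the lists examined, histone genes had 6 of 87, all in the chromosome 1 cluster. The larger histone stretch on chromosome 6 was set aside by the rule. Myeloid transcription factors had 1 of 17 (MYB, with 155 and 68 tags and H3K4me3 in both lists) and splicing factors 1 of 37 (HNRNPM, with 342 and 357 tags). Zinc-finger genes had 1 of 515 (ZNF131), small nuclear RNA genes 1 of 1914 (RNU2-2P, whose interval is shared with WDR74) and small nucleolar RNA genes 2 of 1458 (SNORD3A and snoU13). Ribosomal protein genes had 0 of 85, proteasome genes 0 of 39 and myeloid effector genes 0 of 18. Near some shared interval, in a cluster or not, were the TSSs of 40 histone, 14 zinc-finger, 10 ribosomal protein, 5 splicing factor and 5 proteasome genes. For small nuclear RNA genes the number was 13, for small nucleolar RNA genes 8, for myeloid transcription factors 2 and for myeloid effector genes 1. Of the histone genes near some shared interval, clusters thus held 6 of 40, beside 164 of 1382 for all annotated genes.

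Whole clusters also sat inside single genes. In 58 clusters, with 210 members, all middles lay in 1 coding gene. Some of these came from a single replicate 1 peak, and no matching count was made for other bins. The share of members inside coding genes, 61.7%, was near the 59.95% over all shared intervals. The genes named in the rest of this paragraph were chosen after their values were seen. MBP, the myelin basic protein gene, held a cluster of 5 intervals and had 1 more cluster of 3 beside it. CUEDC1 held 5 intervals, of which 3 were at its starts and all 5 on an H3K4me3 replicate 1 peak, with 174 to 331 tags in replicate 1. RUNX1, a transcription factor of blood development, had 4 intronic intervals from 4 replicate 1 peaks with 74, 22, 120 and 43 tags, and 36, 21, 39 and 22 in replicate 2. The third of these was on an H3K4me3 replicate 1 peak and the others on neither list, and the second had a median of 84 copies per 24-mer. FLI1, an ETS family factor of blood and vessels, had 3 intervals with 125, 175 and 144 tags, and 45, 26 and 43 in replicate 2, of which the outer 2 were on H3K4me3 in both lists and the middle one had a median of 635.5 copies per 24-mer. Neither RUNX1 nor FLI1 had a member within 1 kb of its own start, so both are missing from the list count above.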

How the data were processed

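DEK and H3K4me3 were measured by ChIP-seq in U937 cells, 2 precipitations each. Reads were mapped by the authors with Bowtie 2 (build hg19), and DEK peaks were called with MACS 1.4.1 at default parameters in each precipitation, with non-precipitated chromatin as control. For the H3K4me3 peaks the labels name the same tools, while control and parameters are not given in the sources used here. For every DEK peak the authors deposited a count of tags, not scaled for depth, a score (a multiple of the negative log10 of the MACS p-value, at least 50), a fold enrichment, which is a ratio over the local background, and a false discovery rate in percent. That rate was 100% for all replicate 1 peaks and 0.74% to 16.67% in replicate 2. The deposited H3K4me3 lists hold positions only. The study's methods give a minimum number of paired-end reads per sample, and the exact depth of each library is not given in the sources used here; the DEK peaks held 988363 and 4172422 tags. Tags and scores belong to the whole peak, so intervals of 1 peak share them.

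Peaks were intersected at 1 bp or more, binned by the middle and annotated with GENCODE release 44 on GRCh37, which need not be the authors' annotation. Copies of 24-mers were counted over GRCh37 on both strands. Shares have 95% Wilson intervals for counting error only. With 2 replicates per group and regions as units, no test was run. Named were the 10 clusters with the most members, the 10 members with the largest lower score, the 5 highest-scoring clusters fully on and fully off H3K4me3, and list genes at members. The members, lists and rules were chosen with earlier results of these data known. Alternatives were other overlaps, scores, bins, H3K4me3 and TSS windows and each replicate alone. The work used samtools 1.23.1, pysam 0.24.0, SciPy 1.17.1, pandas 2.3.3, NumPy 2.4.6, Matplotlib 3.10.9, Numba 0.67.0 and Python 3.11.15, and its scripts passed 17 of 17 checks when tested on simulated data. The input samples were not used here.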

Additional observations from a re-analysis of the deposited data

How the results depend on the processing

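The number of members depended on the definition. It was 99 with an overlap of at least 50% of both peaks, 21 with scores of at least 100 in both lists, 1048 for runs of neighbours within 100 kb without bins, 370 with 3 or more separate DEK replicate 1 peaks, 277 with 4 or more intervals per bin and 271 without high-copy windows. It stayed within 1.5 times of 652 with an overlap of 100 bp, bins moved by 50 kb, no stretch set aside, and without windows whose typical 24-mer occurs 2 or more times. With a single DEK list it was 4899 to 139748. The share with H3K4me3 in both lists (37.6%) was 29.3% at 50% overlap, 76.2% at the stricter score, 33.2% with 3 or more separate peaks, 44.7% without high-copy windows, 33.7% with H3K4me3 over 50% of the interval, 42.5% within 1 kb, 8.09% to 34.2% with a single DEK list and 37.9% to 62.9% with a single H3K4me3 list. The share near a TSS (26.7%) was 57.1% at the stricter score, 23.2% with 3 or more separate peaks, 17.9% for coding genes, 18.3% within 500 bp, 38.2% within 2 kb and 14.3% to 17.6% with a single DEK list. Median DEK tags were 108 in replicate 1 with 3 or more separate peaks, and 56.8 and 36.8 per kb of peak. The following were chosen after seeing the data. Counting the middle of the interval alone gave 33.6% on H3K4me3 in both lists and 58.6% in replicate 1. Without windows whose typical 24-mer occurs 2 or more times the shares were 45.0% and 72.1%, and 30.5% near a TSS. With 3 or more separate peaks the replicate 1 share was 56.8%. The exact depth of each library is not given, so a missing peak does not show missing binding. No paired analysis was possible because the results come from no test between groups.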
